A study of Mus musculus with 6 samples.

Results

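The genes described here supply amino acids to the cell and load them onto transfer RNA: 42 genes out of 55471 in the deposited tables, chosen as a named list and matched to mouse symbols through GENCODE release M21. They comprise 20 cytosolic aminoacyl-tRNA synthetases, 7 plasma membrane amino acid transporters, 5 genes of the ATF4 amino acid stress response, 3 enzymes of serine synthesis, 5 enzymes of folate one-carbon metabolism and 2 enzymes of proline synthesis. All 42 passed the filter on low counts, among 12546 genes that did. RNA was sequenced in bulk from OT-I CD8+ T cells, whose receptor recognises an ovalbumin peptide, taken from mice that carry Cas9 at the Rosa26 locus. The cells received a lentiviral guide against Elovl1, an elongase of very long-chain fatty acids (sgElovl1, n = 3), or a non-targeting guide (sgNT, n = 3), each marked by CD90.1. Both groups were transferred into mice with orthotopic KPC_OVA pancreatic tumours, both groups were given anti-PD-1, and CD90.1+ cells were sorted from the primary tumour 7 days after transfer. The recipients were on a C57BL/6J background, and their age was not given per library in the labels used here. sgElovl1 replicates 1 and 2 each pooled RNA from 2 tumours, while every other library came from 1. A guide edits a mixed population, so the sgElovl1 libraries can hold unedited cells, and in sorted bulk RNA fewer cells of a type and less RNA per cell cannot be told apart.

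Aminoacyl-tRNA synthetases join each amino acid to its matching tRNA, the step that feeds the ribosome. When an amino acid runs short, uncharged tRNA activates the kinase GCN2, translation slows, and the transcription factor ATF4 is made. ATF4 is known to drive many synthetases, the serine and one-carbon enzymes, asparagine synthetase and several transporters through C/EBP-ATF response elements, and activated T cells are known to raise these genes as they grow and divide. The comparison asked how the loss of Elovl1 moved these genes in T cells inside the tumour.

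The letters TGATGNAA, the core of such an element, were searched on both strands in RefSeq promoters (GRCm38.p6, 250 bases before to 50 after a gene's start). Of the 32 members with a promoter in the table, 9 held a match (28.1%), while 2.7% of the 9296 tested genes with a promoter did, and 3.97% of all 32851 promoters. The list contains known ATF4 targets, so this share describes how it was composed. A match is a run of letters and not a shown binding site. The stretches below are printed 5′ to 3′ along the gene's strand with the match in capitals, to show where it lies in genes of different roles. The search fixed all but 1 letter of each match. TTNCATCA is the same motif read from the other strand.
Asns, chr6:7693210-7693268, minus strand: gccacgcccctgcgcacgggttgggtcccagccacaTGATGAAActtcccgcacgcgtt
Chac1, chr2:119351013-119351092, plus strand: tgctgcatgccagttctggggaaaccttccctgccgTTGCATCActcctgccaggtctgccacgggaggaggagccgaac
Pycr1, chr11:120643808-120643887, minus strand: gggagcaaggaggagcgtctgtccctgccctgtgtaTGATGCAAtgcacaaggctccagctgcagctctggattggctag
Gars, chr6:55037935-55038000, plus strand: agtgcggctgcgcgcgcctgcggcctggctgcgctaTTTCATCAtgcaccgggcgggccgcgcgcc
Aars, chr8:111033694-111033773, plus strand: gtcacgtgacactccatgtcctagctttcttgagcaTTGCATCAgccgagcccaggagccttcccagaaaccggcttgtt
Yars, chr4:129189895-129189924, plus strand: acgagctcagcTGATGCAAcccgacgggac
The matches began 23 bases before the start in Asns, 30 in Gars, 103 in Pycr1, 112 in Aars and 193 in Chac1, and at base 4 of the transcript in Yars. Aars held another match, TTTCATCA, at base 10 of its transcript. Tars, Iars and Trib3 also held one. Cars, Hars, Lars, Nars, Rars, Vars, Wars, Slc7a5, Slc1a5 and Slc38a1 were not matched to the table.

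Levels were read per length, as transcripts per 1000000 (TPM). Slc3a2, the heavy chain shared by several transporters, was the highest member at 407 TPM as the mean of the sgNT libraries, followed by the glutamine carrier Slc1a5 at 202 TPM, the serine pathway enzyme Phgdh at 189 TPM and the glycyl-tRNA synthetase Gars at 153 TPM. The stress genes lay at the other end, with Sesn2 at 3.46 TPM and Chac1 at 1.54 TPM. Summed over the 20 synthetases, the level was 1130, 1230 and 1220 TPM in the sgElovl1 libraries and 1260, 1570 and 1250 TPM in sgNT. The summed synthetase level was therefore below every sgNT library in all 3 sgElovl1 libraries, but the nearest values, 1230 and 1250, were close.

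Most members were lower in sgElovl1 cells by a small amount, while the transporters leaned the other way. Counts per 1000000 (CPM, scaled by edgeR's TMM factors) were compared with edgeR's quasi-likelihood test over all genes, with Benjamini-Hochberg adjustment and a threshold of 0.05. Of the 42 members, 6 passed the threshold as lower, 1 as higher and 35 did not pass. Over all tested genes 5.13% passed as lower and 8.64% as higher. An unadjusted p under 0.05 was found for 21 of the 42 members and for 4034 of all 12546 tested genes. By sign alone, 30 log2 fold changes were negative, 11 were positive and that of Wars was 0.00, with a median of -0.27 where that of all tested genes was -0.004. Every sgElovl1 library lay below every sgNT library for 19 members and above for 2, against 17.7% and 19.4% of all tested genes. The 6 that fell were the synthetases Farsb, Yars, Gars and Kars and the serine enzymes Psat1 and Psph, and the 1 that rose was the transporter Slc38a2. No call held in every fit that left out 1 library. All 7 were lost without sgElovl1 replicate 1, without sgElovl1 replicate 2 or without sgNT replicate 2. The last is the sgNT library with the highest value for most of the members that fell. Calls over all tested genes also dropped in those fits, to 384 higher and 81 lower, 279 and 42, and 334 and 64. With all libraries they were 1084 and 643.

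**Figure D1:**
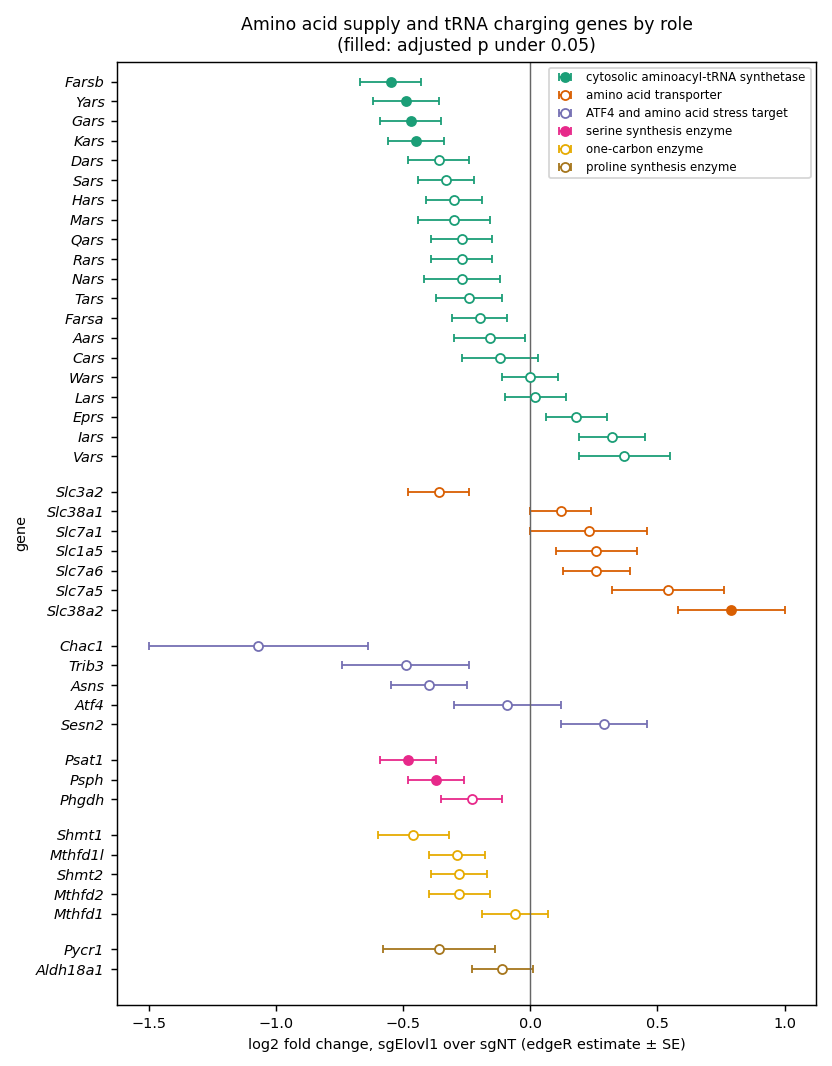
Log2 fold change of sgElovl1 over sgNT (x axis, edgeR estimate ± SE, n = 3 per group) for the 42 members (y axis) in blocks by role. Filled points passed an adjusted p of 0.05, which were 6 on the lower side and Slc38a2 on the higher side.

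Among the synthetases, 4 of 20 fell and none rose, where 5.13% of all tested genes passed as lower and 8.64% as higher. Their median log2 fold change was -0.27. Farsb, the beta subunit of phenylalanyl-tRNA synthetase on chromosome 1, measured 101, 111 and 107 CPM in the sgElovl1 libraries and 144, 178 and 147 CPM in the sgNT libraries. The groups did not overlap, and the log2 fold change was -0.55 ± 0.12 (SE, adjusted p = 0.0142). Its partner subunit Farsa measured 86.4, 86.9 and 78.2 CPM against 97.6, 101 and 90.4 CPM, which also did not overlap but did not pass (log2 fold change -0.20, adjusted p = 0.224). The enzyme is a tetramer of equal numbers of both subunits. The ratio of Farsa to Farsb in TPM was 0.912, 0.850 and 0.780 in sgElovl1 and 0.731, 0.619 and 0.660 in sgNT, so the balance between the subunit transcripts was higher in every sgElovl1 library.

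Gars (chromosome 6), which charges glycine tRNA, measured 214, 235 and 235 CPM in sgElovl1 and 278, 346 and 322 CPM in sgNT. The lowest sgNT library was above the highest sgElovl1 library, and the log2 fold change was -0.47 ± 0.12 (SE, adjusted p = 0.0276). Kars (chromosome 8), which charges lysine tRNA in both the cytosol and the mitochondrion, measured 128, 128 and 134 CPM against 163, 193 and 179 CPM. Its sgElovl1 libraries lay within 6 CPM of each other, and its log2 fold change was -0.45 ± 0.11 (SE, adjusted p = 0.0223). Yars (chromosome 4), the tyrosine enzyme whose promoter stretch is printed above, measured 66.6, 72.6 and 77.4 CPM against 89.5, 120 and 94.8 CPM. Here the groups were apart by a smaller margin, with sgNT replicate 2 well above the other sgNT libraries, and the log2 fold change was -0.49 ± 0.13 (SE, adjusted p = 0.0353).

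**Figure D2:**
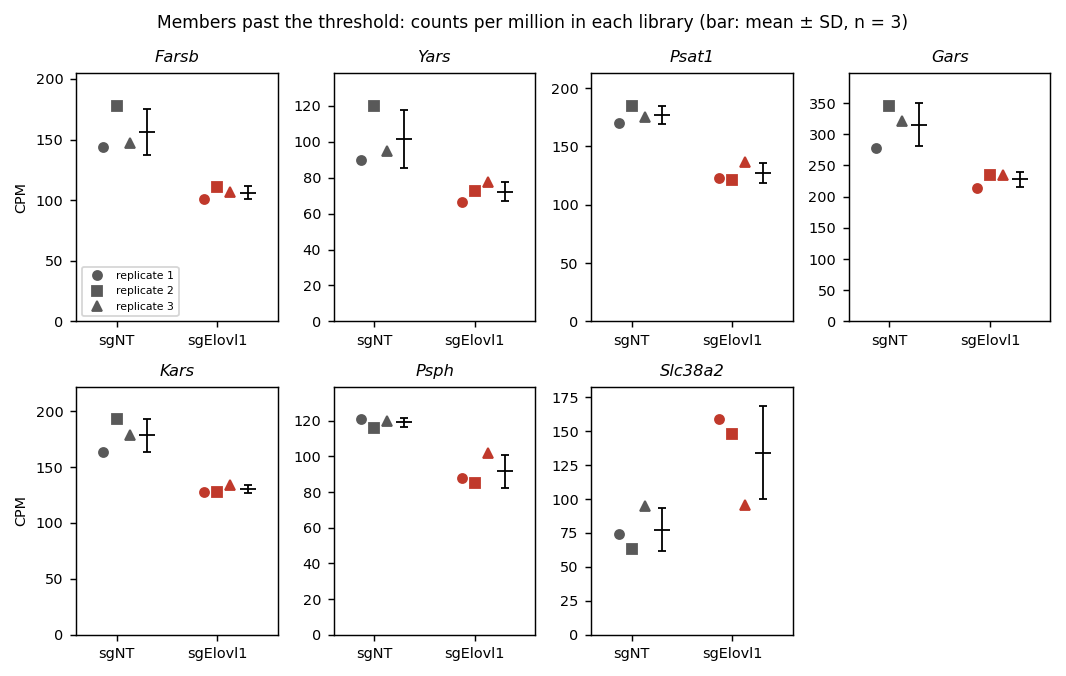
CPM (y axis, from 0) of the 7 members that passed the threshold, in the 3 sgNT and 3 sgElovl1 libraries (x axis). Symbols mark the replicate number and the bar is the mean ± SD (n = 3). The 6 that fell have all sgElovl1 points under all sgNT points, and in Slc38a2 the replicate 3 libraries, at 94.6 and 95.3, nearly meet.

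The next synthetases in order missed the threshold although their groups were apart. Dars, the aspartate enzyme, measured 193, 204 and 233 CPM against 266, 294 and 247 CPM (log2 fold change -0.36, adjusted p = 0.0677). Sars, the serine enzyme, measured 185, 199 and 180 CPM against 224, 238 and 249 CPM (log2 fold change -0.33, adjusted p = 0.0582). DESeq2 called both. Hars measured 117, 121 and 123 CPM against 134, 165 and 144 CPM, with an adjusted p of 0.0983. Qars, the glutamine enzyme, measured 74.7, 69.3 and 58.1 CPM against 78.7, 86.1 and 79.8 CPM (adjusted p = 0.148).

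A set of synthetases did not share the lower values. Iars, the isoleucine enzyme, measured 67.1, 67.3 and 74.0 CPM in sgElovl1 and 45.2, 60.2 and 61.4 CPM in sgNT, above in every library, with a log2 fold change of 0.32 (adjusted p = 0.124). Vars, the valine enzyme, measured 113, 124 and 80.4 CPM against 67.7, 81.3 and 97.1 CPM, so its replicate 3 libraries crossed (log2 fold change 0.37, adjusted p = 0.182). Eprs, which charges both glutamate and proline tRNA, stood at 0.18 and Lars, the leucine enzyme, at 0.02 on the log2 scale. Wars, the tryptophan enzyme, measured 91.4, 98.3 and 99.2 CPM against 91.9, 96.8 and 101 CPM, a log2 fold change of 0.00 with an SE of 0.11. The remaining 6, Aars, Cars, Mars, Nars, Rars and Tars, had overlapping groups and log2 fold changes between -0.30 and -0.12.

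Synthetases fall into a pair of unrelated structural classes, and this split was looked at after the values were seen. All 10 members of class II (Aars, Dars, Farsa, Farsb, Gars, Hars, Kars, Nars, Sars and Tars) had negative log2 fold changes with a median of -0.32, and 3 of them fell. The 9 of class I had a median of -0.12, with 3 positive and 1 that fell, Yars. Over all tested genes 5.13% passed as lower. Eprs holds a domain of each class. The median gene length was 2198 bases in class II and 2555 bases in class I, and length moved with the change, as described below. The 8 synthetases of the multisynthetase complex and the 12 outside it had medians of -0.27 and -0.26. Of the 3 scaffold proteins of that complex, Aimp1 fell, at 47.1, 42.4 and 47.1 CPM against 55.7, 65.2 and 66.1 CPM (log2 fold change -0.45, adjusted p = 0.0281, and 0.0892 with a gene length offset), and Aimp2 (-0.24) and Eef1e1 (-0.05) did not pass. None of 17 mitochondrial synthetases passed by edgeR or limma-voom, and DESeq2 called 1 higher, Vars2. An unadjusted p under 0.05 was found for 3 of the 17, against 4034 of all 12546 tested genes. Vars2 measured 12.1, 12.6 and 9.24 CPM against 8.14, 7.25 and 7.12 CPM (adjusted p = 0.0553 by edgeR), and Mars2 (0.47, adjusted p = 0.122) and Yars2 (-0.27, adjusted p = 0.147) followed.

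**Figure D3:**
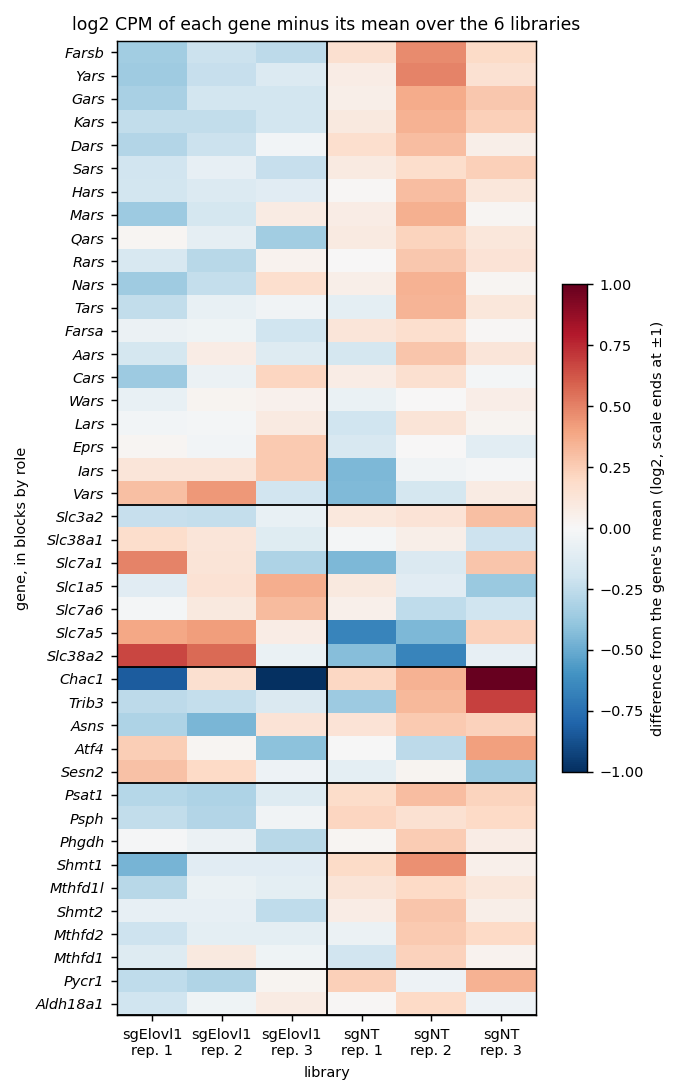
Log2 CPM of each member minus that gene's mean over the 6 libraries (colour, with the scale ending at ±1), with genes in rows by role and libraries in columns. Most synthetase, serine and one-carbon rows are below their mean in sgElovl1 and above it in sgNT, the strongest in sgNT replicate 2, and Slc7a5 and Slc38a2 run the opposite way in replicates 1 and 2.

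The amino acid transporters had a median log2 fold change of 0.26, with 6 of 7 positive. Slc38a2 on chromosome 15, also known as SNAT2, a sodium-coupled carrier of small neutral amino acids that cells raise when amino acids are scarce, measured 159, 148 and 95.3 CPM in sgElovl1 and 74.4, 63.3 and 94.6 CPM in sgNT. Its log2 fold change was 0.79 ± 0.21 (SE, adjusted p = 0.0425), and the replicate 3 libraries of the groups were level with each other. With the replicate number as a block the adjusted p was 0.0644. Without replicate 3 of both groups its log2 fold change was 1.16. Slc7a5, the light chain of the LAT1 transporter of large neutral amino acids, measured 60.6, 61.7 and 48.7 CPM against 29.3, 33.8 and 54.4 CPM. Replicates 1 and 2 were clearly apart and the replicate 3 libraries crossed, so the log2 fold change of 0.54 ± 0.22 (SE) did not pass (adjusted p = 0.138). Without both replicate 3 libraries it was 0.95 and passed.

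Slc3a2, the heavy chain that carries Slc7a5 and Slc7a6 to the membrane, leaned the other way at 406, 403 and 451 CPM against 512, 522 and 585 CPM. The groups were apart, with a log2 fold change of -0.36 ± 0.12 (SE, adjusted p = 0.0587), and DESeq2 called it lower (adjusted p = 0.0109). The ratio of heavy to light chain transcript, Slc3a2 to Slc7a5 in TPM, was 16.2, 15.1 and 22 in sgElovl1 and 39.8, 37.4 and 26.3 in sgNT. The ratio was lower in every sgElovl1 library, and the heavy chain transcript remained many times the light chain in all 6.

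Slc1a5, the main glutamine carrier of T cells, measured 485, 578 and 673 CPM against 560, 484 and 404 CPM, which overlapped (log2 fold change 0.26, adjusted p = 0.269). Slc38a1, the related SNAT1 carrier, differed little, at 135, 130 and 110 CPM against 118, 125 and 104 CPM. Slc7a6, a light chain for cationic and neutral amino acids, stood at 0.26 (adjusted p = 0.182) and Slc7a1, the arginine and lysine carrier CAT1, at 0.23 (adjusted p = 0.540) on the log2 scale. Of 15 other amino acid transporters tested, 3 had an unadjusted p under 0.05, against 4034 of all 12546 tested genes. None of the 15 passed by edgeR or limma-voom, and DESeq2 called Slc38a9 higher. Those nearest were Slc38a9, a lysosomal arginine sensor, at 0.53 (adjusted p = 0.0731), the taurine carrier Slc6a6 at 0.45 (adjusted p = 0.0826) and the mitochondrial glutamate carrier Slc25a22 at 0.36 (adjusted p = 0.120).

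No member of the ATF4 group passed by edgeR or limma-voom, and DESeq2 called 1 lower, Asns (adjusted p = 0.0497). An unadjusted p under 0.05 was found for 2 of the 5, against 4034 of all 12546 tested genes. Atf4 itself measured 145, 124 and 91.7 CPM in sgElovl1 and 122, 102 and 162 CPM in sgNT, fully overlapping, with a log2 fold change of -0.09 ± 0.21 (SE, adjusted p = 0.788). ATF4 is controlled mainly at translation, which these data do not measure. Asns, which makes asparagine, measured 92.7, 83.5 and 126 CPM against 126, 138 and 135 CPM, so sgElovl1 replicate 3 came level with the lowest sgNT library (log2 fold change -0.40, adjusted p = 0.0897). Chac1, a glutathione-degrading enzyme and sensitive ATF4 target, was barely detected, at 0.770, 1.53 and 0.686 CPM against 1.58, 1.75 and 2.98 CPM (log2 fold change -1.07 ± 0.43 SE, adjusted p = 0.116). Trib3, a pseudokinase that restrains ATF4, measured 5.51, 5.61 and 5.99 CPM against 5.15, 8.26 and 10.6 CPM (adjusted p = 0.209). Sesn2, a leucine sensor upstream of mTORC1, was the 1 positive member at 0.29 (adjusted p = 0.266).

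Around ATF4, none of 20 further genes of the integrated stress response passed by edgeR. An unadjusted p under 0.05 was found for 4 of these 20, against 4034 of all 12546 tested genes. DESeq2 and limma-voom each called 1, Eif2ak4, as higher. This gene, which encodes the uncharged-tRNA sensor GCN2, measured 8.66, 7.58 and 7.36 CPM against 3.96, 4.29 and 6.33 CPM (log2 fold change 0.69, adjusted p = 0.0663). Its groups were apart. The phosphatase subunit Ppp1r15b stood at 0.34 (adjusted p = 0.102) and the transcription factor Jdp2 at -0.47 (adjusted p = 0.105). Among the members, the 9 with a TGATGNAA match had a median log2 fold change of -0.40 with 8 negative, Iars being the exception, and the 23 without had -0.28 with 18 negative. Over tested genes the medians with and without the motif were -0.01 and -0.02.

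Transcripts of the 3 serine synthesis enzymes were lower in sgElovl1, by groups that did not overlap. Of all tested genes, 17.7% were apart in this direction, and serine synthesis itself was not measured. Phgdh, the first enzyme, measured 274, 266 and 228 CPM in sgElovl1 and 280, 330 and 292 CPM in sgNT. Its nearest values, 274 and 280, were close, and it did not pass (log2 fold change -0.23, adjusted p = 0.205). Psat1 on chromosome 19, the transaminase of the second step, measured 123, 121 and 137 CPM against 170, 185 and 175 CPM. It fell with a log2 fold change of -0.48 ± 0.11 (SE, adjusted p = 0.0172), and its sgNT libraries differed among themselves by less than their distance to sgElovl1. Psph on chromosome 5, the phosphatase that releases serine, measured 87.9, 85.0 and 102 CPM against 121, 116 and 120 CPM. Its log2 fold change was -0.37 ± 0.11 (SE, adjusted p = 0.0489), next to the threshold, and the adjusted p was 0.0566 with the replicate block. Exons of Psph and of the chaperonin gene Cct6a overlap by 1074 bases on opposite strands, and whether counting used the strand is not given in the sources used here. Cct6a measured 220, 226 and 192 CPM against 235, 256 and 251 CPM (log2 fold change -0.22, adjusted p = 0.198), and its part in the Psph value was not tested.

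The 5 one-carbon enzymes, which carry serine's carbon through folate to purine and thymidylate synthesis, had negative log2 fold changes with a median of -0.28. None passed by edgeR, while DESeq2 and limma-voom each called 1, Shmt1. An unadjusted p under 0.05 was found for 4 of the 5, against 4034 of all 12546 tested genes. Shmt1, the cytosolic serine hydroxymethyltransferase, measured 36.6, 46.6 and 46.6 CPM against 57.5, 69.1 and 52.3 CPM (log2 fold change -0.46, adjusted p = 0.0509). With the replicate block it passed (adjusted p = 0.0486). Its mitochondrial counterpart Shmt2 measured 132, 132 and 117 CPM against 147, 169 and 145 CPM (log2 fold change -0.28, adjusted p = 0.120). The mitochondrial steps that follow were apart by narrow margins, Mthfd2 at 90.5, 97.2 and 97.4 CPM against 100, 125 and 120 CPM and Mthfd1l at 54.3, 62.8 and 61.5 CPM against 72.1, 75.4 and 71.3 CPM. Their adjusted p was 0.134 and 0.0939. The cytosolic trifunctional enzyme Mthfd1 overlapped and stood at -0.06.

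Of all tested genes, 8.64% passed as higher, and among 15 tested folate and glycine genes 1 did (6.67%). This was Mtr, the methionine synthase that hands a folate methyl group to homocysteine, at 13.6, 15.0 and 16.5 CPM in sgElovl1 and 7.67, 8.62 and 9.31 CPM in sgNT (log2 fold change 0.82 ± 0.16 SE, adjusted p = 0.0112). Its groups were widely apart, and the call held in 4 of the 6 fits without 1 library but not with the gene length offset described below (adjusted p = 0.0568). Next came Gcsh, the H protein of glycine cleavage, at -0.36 (adjusted p = 0.0882) and Slc19a1, the reduced folate carrier, at -0.32 (adjusted p = 0.0914). Neither proline enzyme passed by edgeR, DESeq2 or limma-voom, and neither had an unadjusted p under 0.05. In proline synthesis, Aldh18a1 measured 93.8, 105 and 114 CPM against 109, 124 and 104 CPM and stood at -0.11 on the log2 scale. Pycr1, the mitochondrial reductase, measured 4.81, 4.66 and 5.85 CPM against 6.77, 5.54 and 7.33 CPM and stood at -0.36 (adjusted p = 0.272).

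The change of the members followed gene length. Over the 42 members, Spearman's rho of log2 fold change with gene length was 0.65, and over all 12546 tested genes it was 0.30, both given as descriptions across genes of the same libraries. Tested genes were cut by length into 4 bins of equal size, and no member lay in the shortest bin. In the next bin, from 1423 to 2169 bases, 18 members had a median of -0.36 where all tested genes had -0.16, and none was positive. In the bin from 2169 to 3085 bases, 12 members had -0.20 where all genes had 0.01. In the longest bin, 12 members had 0.15 where all genes had 0.29, and Slc38a2, Slc7a5, Vars and Iars all lay there. The members' median was below that of all genes in each of the 3 bins that held any, but single members lay above it, among them Slc38a2, Slc7a5, Vars and Iars in the longest bin and Slc1a5, Slc7a6 and Slc7a1 in the bin before. With an offset for the length trend in each library, Farsb, Gars, Kars, Yars and Psat1 kept their calls, Slc38a2 (adjusted p = 0.139) and Psph (adjusted p = 0.159) lost theirs, and Tars (adjusted p = 0.0473) and Mthfd1l (adjusted p = 0.0170) passed as lower.

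**Figure D4:**
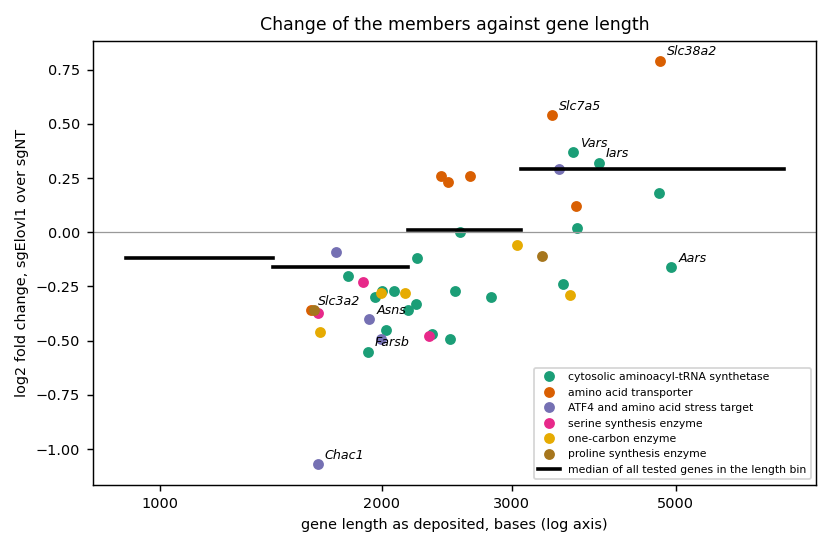
Log2 fold change of sgElovl1 over sgNT (y axis) against gene length in bases (x axis, log scale) for the 42 members, coloured by role. Black bars are the medians of all tested genes in each length bin, drawn only over the lengths shown, and the members climb from a median of -0.36 in the second bin to 0.15 in the longest.

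For 7 members the replicate 3 libraries leaned opposite ways, each at least 0.3 on the log2 scale from the mean of the other 2 of its group. In Slc38a2, Slc7a5, Slc7a1, Vars, Atf4 and Chac1 sgElovl1 replicate 3 was below the other 2 and sgNT replicate 3 above, and in Slc1a5 it was the reverse. For Slc7a5 these leans were -0.33 in sgElovl1 and 0.79 in sgNT, for Slc38a2 -0.69 and 0.46, and for Atf4 -0.55 and 0.53. Without both replicate 3 libraries, 4 members passed as higher (Slc38a2, Slc7a5, Slc7a1 and Vars) and 16 as lower, among them Asns at -0.59, Nars at -0.51 and Dars at -0.50. The 4 higher members belong to the 7 above. Their replicate 3 libraries brought the groups nearer, so leaving these out had to widen the difference. In the same fit 15.4% of 12656 tested genes passed as higher and 16.1% as lower, so the members' count was below the background on the higher side. The 7 members that passed with all 6 libraries were among these 20.

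**Figure D5:**
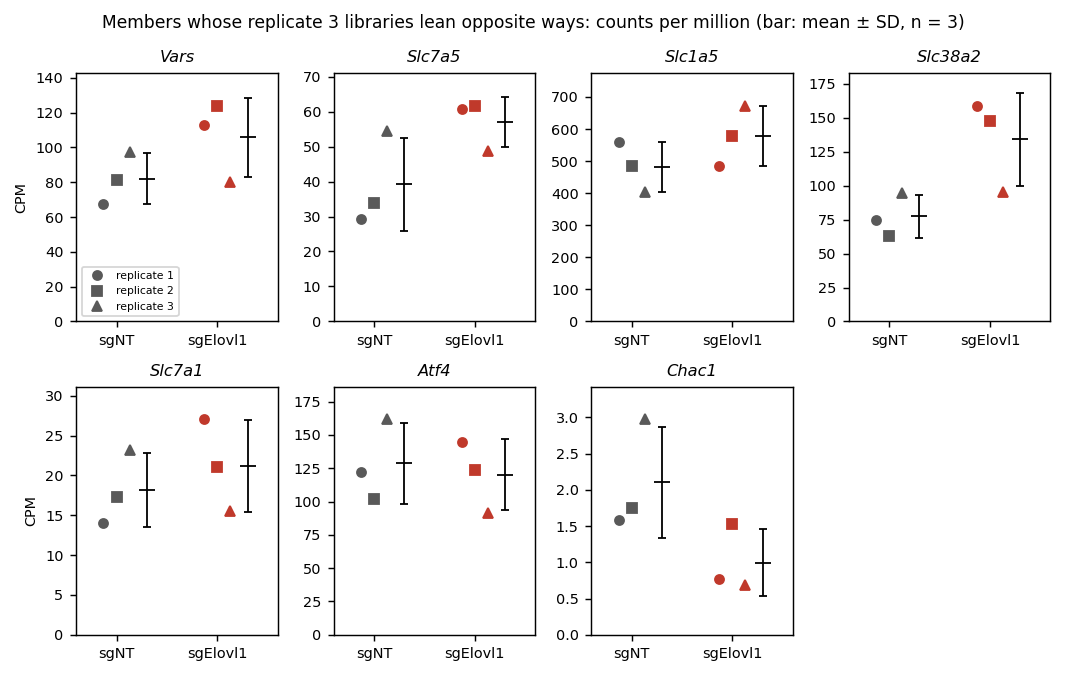
CPM (y axis, from 0) of the 7 members whose replicate 3 libraries lean opposite ways, by library in sgNT and sgElovl1 (x axis). Triangles are replicate 3 and the bar is the mean ± SD (n = 3). In Slc7a5, Slc7a1, Vars and Atf4 the triangles cross while the circles and squares stay apart, in Atf4 narrowly (124 in sgElovl1 against 122 in sgNT).

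The libraries held 21980273 to 26165380 expected counts over 15595 to 18633 genes. Elovl1 checked the labels, at 81.5, 76.6 and 95.4 CPM in sgElovl1 and 283, 280 and 255 CPM in sgNT (log2 fold change -1.69 ± 0.12 SE, adjusted p = 8.7e-05). The first principal component (44.7% of variance) parted the groups, and the second (29.1%) set both replicate 3 libraries apart. For the marker calls that follow, 5.13% of all tested genes passed as lower and 8.64% as higher. The 10 T cell markers, of which 4 fell and 1 rose, summed to 12500 to 13500 CPM in sgElovl1 and 15000 to 15500 CPM in sgNT. The 12 macrophage and monocyte markers, none at 0 throughout, summed to 106 to 324 CPM in sgElovl1 and 41.7 to 69.2 CPM in sgNT. Of these 12, 10 were tested and 3 rose. The 9 tumour epithelium markers summed to 37.4 to 55.2 CPM in replicates 1 and 2, to 351 CPM in sgElovl1 replicate 3 and to 1050 CPM in sgNT replicate 3. Summed markers reached at most 0.773 CPM for fibroblasts, with Lum, Pdgfra and Fap at 0 in all libraries, and 1.73 CPM for erythroid cells (Hbb-bt at 0). They reached at most 9.63 CPM for B cells (Pax5 at 0) and 15.1 CPM for endothelium (Cdh5, Tek and Emcn at 0). For CD4 T cells the highest sum was 12.9 CPM, and of 3 markers tested Cd40lg and Foxp3 passed, 1 as higher and 1 as lower. For dendritic cells it was 42.1 CPM, and of 2 markers tested Zbtb46 passed as higher (log2 fold change 1.26). The 8 neutrophil markers, with Retnlg at 0 in all libraries, summed to 1.5, 1.61 and 3.59 CPM in sgElovl1 and 0.622, 0 and 0.117 CPM in sgNT, and Csf3r, the 1 of them tested, rose. The 12 acinar markers, with Amy2b at 0, summed to 8.06 to 10.5 CPM in sgElovl1 and 5.01 to 7.30 CPM in sgNT, and none of the 6 tested passed by edgeR, DESeq2 or limma-voom, 1 having an unadjusted p under 0.05. The T cell, macrophage, neutrophil and acinar sums moved with the groups and the epithelial sum with the replicate 3 libraries, and their part in the members' values was not tested.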

How the data were processed

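Per the labels and the methods, OT-I CD8+ T cell RNA was preamplified (SMARTer) and sequenced in pairs, and the authors aligned reads to mm10 with STAR 2.7.7a and estimated counts with RSEM 1.3.1 (the submitters' notes also name DESeq2 1.36.0). The annotation release, and the strand setting of counting, are not given in the sources used here. The deposited tables hold RSEM expected counts and TPM per gene, by library. TPM were used as the authors deposited them, to compare levels between genes.

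Expected counts were rounded to whole numbers. Of 55471 gene IDs, 55230 matched a GENCODE M21 symbol. Genes passing filterByExpr (minimum count 10) were tested with edgeR 4.0.16 (R 4.3.3) by TMM scaling and glmQLFTest, sgElovl1 against sgNT with 3 libraries each. The members, the lists of related genes and the tests were chosen with earlier results of these data known. All 42 members were accounted for. Members that passed or came near the threshold, or whose groups did not overlap, were named with values per library. From each related list, the genes that passed or had the smallest p were named, and Cct6a, the synthetase classes and the replicate 3 pattern were chosen after their values were seen. SD is over the 3 libraries of a group, and the SE of a log2 fold change comes from the edgeR fit of all 6 libraries. The labels do not tie the samples to separate cultures of donor cells, so p-values measure the spread between these libraries. The total expected counts per library bound the counting error, and the biological coefficient of variation was 0.22. Counts of 12383 genes were simulated with that same coefficient for every gene. On them, the sgElovl1 against sgNT test called 1.52% of genes changed by 0.5 on the log2 scale and 61.2% of those changed by 1. It called 98.5% of those changed by 2 and 0.0328% of unchanged genes.

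Alternatives were RLE size factors, DESeq2 1.42.0, limma-voom and limma on log2(TPM + 1) (limma 3.58.1), no low count filter, a length offset (lowess span 0.3), a replicate block and leaving out libraries. Same-numbered libraries of the 2 groups deviated together (correlations of deviations 0.212, 0.245 and 0.405), while sgElovl1 replicate 1 with sgNT replicate 2 gave 0.169 and sgElovl1 replicate 2 with sgNT replicate 1 gave 0.107. Every pair of replicate 3 with another number was negative. Deviations were taken from each group's mean, so the positive replicate 3 pair by itself pulls those pairs below 0. They are therefore no separate sign that replicate 3 stood apart. Any pairing comes from the data and is not in the labels. Marker and related lists came from general knowledge, and some of their genes are not reported here. Promoter sequences came from RefSeq (GRCm38.p6), of the same assembly as mm10.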

Additional observations from a re-analysis of the deposited data

How the results depend on the processing

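With all 6 libraries, 1 member passed as higher and 6 as lower. The count of members higher was 0 with no low count filter, 0 with the gene length offset, 0 with the replicate block and 4 without replicate 3 of both groups, and it stayed at 1 with RLE size factors, DESeq2, limma-voom and log2(TPM + 1). The count lower was 11 by DESeq2, 0 on log2(TPM + 1), 16 without replicate 3 of both groups, 7 with RLE size factors, limma-voom, no filter and the length offset, and 6 with the replicate block. Leaving out 1 library gave 0 to 2 higher and 0 to 13 lower. Both counts were 0 without sgElovl1 replicate 1, without sgElovl1 replicate 2 or without sgNT replicate 2. Over all tested genes those fits called 384 higher and 81 lower of 13001, 279 and 42 of 13002, and 334 and 64 of 13115. Without sgElovl1 replicate 3 the members' counts were 2 and 13, and 1414 and 1304 of 12882 tested genes passed. The replicate block removed the calls of Slc38a2 and Psph, added Shmt1 and changed no other member's call. Over all tested genes, 1084 were higher and 643 lower in the fit with all libraries, 923 and 162 on log2(TPM + 1), 721 and 437 with the length offset, 1396 and 1088 by DESeq2, and 1947 and 2039 without replicate 3 of both groups.

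Of 588 values of a member under an alternative, 13 changed sign, all in members that had not passed. On log2(TPM + 1) Aars became 0.04 and Mthfd1 0.04. With the length offset Eprs became -0.14, Lars -0.22, Slc38a1 -0.14 and Atf4 0.04. Leaving out 1 library in turn, Cars ranged from -0.28 to 0.01 (positive without sgElovl1 replicate 1), Lars from -0.05 to 0.11 (negative without sgElovl1 replicate 3, at -0.02, or sgNT replicate 1), Atf4 from -0.25 to 0.12 (positive without sgElovl1 replicate 3, at 0.07, or sgNT replicate 3), and Mthfd1 was 0.07 without sgNT replicate 2. Without replicate 3 of both groups Atf4 was 0.26. The cause was not tested. With 3 libraries a group, a member that did not pass is not shown to be unaltered. The simulated counts cannot say how often a member's change would be called. They gave every gene the same biological coefficient of variation, 0.22, and most members varied less between replicates.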

Other observations

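Of 22 tested genes of glutamine, aspartate, arginine and branched-chain metabolism, 5 passed as lower and 1 as higher. Over all tested genes 5.13% and 8.64% did. In aspartate and branched-chain amino acid metabolism, 4 genes that fell in sgElovl1 cells are given here. Got1, the cytosolic aspartate transaminase, measured 88.6, 105 and 95.5 CPM in sgElovl1 and 128, 147 and 148 CPM in sgNT (log2 fold change -0.55 ± 0.12 SE, edgeR adjusted p = 0.0136), and its mitochondrial counterpart Got2 measured 191, 194 and 151 CPM against 224, 260 and 253 CPM (-0.46, adjusted p = 0.0370). In branched-chain breakdown, the first steps fell as well, the cytosolic transaminase Bcat1 at -0.42 (adjusted p = 0.0360) and the dehydrogenase subunit Bckdha at -0.43 (adjusted p = 0.0476). Arg1, an arginase abundant in myeloid cells, measured 6.35, 10.5 and 38.1 CPM against 0.724, 1.95 and 4.35 CPM beside the higher macrophage markers, and did not pass by edgeR (adjusted p = 0.144) or limma-voom (0.213) but passed by DESeq2 (0.0198) and by edgeR with the replicate block (0.000896).

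In the methionine cycle and polyamine synthesis, Amd1, which makes the aminopropyl donor of polyamines, rose at 49.7, 40.3 and 39.8 CPM against 30.0, 30.4 and 33.6 CPM (0.46, adjusted p = 0.0343). Mtap, which salvages methionine from the spent donor, fell at 51.0, 51.9 and 49.0 CPM against 62.2, 65.0 and 70.0 CPM (-0.38, adjusted p = 0.0402). Mat2a, which makes S-adenosylmethionine, was higher in every sgElovl1 library and did not pass (0.30, adjusted p = 0.100). Each of these calls, like those of the members, was lost in some fits that left out 1 library: it held in 3 of 6 for Got1, 2 of 6 for Bcat1 and Amd1, 1 of 6 for Got2 and Mtap, and 0 of 6 for Bckdha. With the replicate block the adjusted p was 0.0525 for Bcat1, 0.0657 for Bckdha, 0.0572 for Mtap and 0.0510 for Amd1, and with the gene length offset 0.145 for Bckdha and 0.125 for Amd1.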
